A study of Mus musculus with 6 samples.

Results

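Receptor-type protein tyrosine phosphatases (RPTPs) are single-pass membrane proteins whose intracellular phosphatase domains remove phosphate from tyrosine residues and so oppose tyrosine kinases. In the developing cortex they act as receptors for matrix proteoglycans, adhesion molecules and presynaptic or postsynaptic partners, and members of the family guide axons, organise synapses and mark glial progenitors. The 10 genes described here are Ptpra, Ptprd, Ptpre, Ptprf, Ptprg, Ptprk, Ptprm, Ptprs, Ptprt and Ptprz1, found by their symbols among the 53110 genes of the deposited table. They were picked with the difference between Setd5+/- and wild-type (WT) cells in this same table known. Every such difference is therefore a description and carries no test.

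The cells were primary cortical neural stem cells (NSCs) of the mouse, isolated from the embryonic telencephalon, kept as adherent cultures on Matrigel with bFGF and EGF, and grown at 21% O2. WT NSCs were the controls, and Setd5+/- NSCs carried a heterozygous mutation of Setd5, a gene coding for a chromatin regulator, introduced by CRISPR-Cas9. The labels list 3 samples of each genotype, 6 in all. The column headers give the 3 samples of a genotype the same index and lane, and the 3 Setd5+/- columns the same clone tag.

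The 3 samples of a genotype were treated as parts of 1 library. Between 9995980 and 10004948 reads were counted on genes in a WT sample and between 7143309 and 7146147 in a Setd5+/- sample. The chi-square of their read pairs over genes, divided by its degrees of freedom, was 0.961 to 0.986 for the 6 pairings within a genotype, against 34.9 to 35.0 for the 9 pairings across genotypes. The read pair was taken as the unit because the reads were paired and 70.9% to 73.5% of the values of 1 to 20 reads in a sample were even. Pairs were not counted as such, and reads were divided by 2. In single reads the variance between the samples was 1.98 times the mean for WT and 1.94 times for Setd5+/- NSCs. A chi-square near 1 within a genotype therefore rests on the pair as the unit. With reads halved in this way, the samples of a genotype differed by no more than sampling noise, while in single reads they differed by more. Given also the shared index and lane and the nearly equal read totals, they were counted as 1 sample, so n = 1 per genotype. The genotype cannot be told apart from the clone, the library, the index or the lane, and no p-value, SD or SE is given. Ratios carry a 95% counting interval, which covers counting error only and not the spread between cultures or clones. In WT samples Setd5 itself, the edited gene, had 2498, 2749 and 2780.1 normalized counts, against 2151, 1989.9 and 2055 in Setd5+/- samples, a ratio of 0.772 (interval 0.736 to 0.809). The genotypes did not overlap for Setd5, and the lower values were those of the samples labelled Setd5+/-.

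Markers of the labelled cell type were present in both genotypes. All 8 NSC markers were measured, that is, had a mean of at least 10 normalized counts over the 6 samples, with 2 (Fabp7 and Hes1) at least 2-fold lower and none at least 2-fold higher in Setd5+/- cells. Their summed level was 73060 to 73329 normalized counts in WT and 52056 to 52790 in Setd5+/- samples, with Fabp7, a fatty acid binding protein of radial glia, the lowest by log2 difference, at −1.65, and Vim the highest, at 0.60. Of 8 neuronal markers 6 were measured, of which 4 were at least 2-fold lower and none at least 2-fold higher in Setd5+/- cells. Their summed level went the other way, at 10520.0 to 10868 in WT and 12547 to 12639 in Setd5+/- samples, with Map2, the most abundant of them, at a log2 difference of 0.32 and Syt1, the lowest, at −3.46. All 6 astrocyte markers were measured, 3 at least 2-fold higher and 2 at least 2-fold lower, with a summed level of 7091 to 7212 against 3905 to 4190.5 and extremes of 3.91 for Gfap and −1.93 for Slc1a2 on the log2 scale. Of 8 markers of the oligodendrocyte lineage 7 were measured, none at least 2-fold higher and 2 at least 2-fold lower, with a summed level of 40997 to 41788 against 23688 to 24533. Among these, Sox10 had 1080 reads in the WT samples and 4 in the Setd5+/- samples, while Pdgfra and Cspg4, markers of oligodendrocyte precursors, had log2 differences of 0.25 and 0.91. Mesenchymal, endothelial and microglial lists had 1 measured marker each (Prrx1, Kdr and Csf1r, at 0.71, 1.27 and −0.85 on the log2 scale), with Pdgfrb, Dcn, Lum, Twist1, Cdh5, Cldn5, Emcn, Cx3cr1, Itgam and Tmem119 at 3 reads or fewer in either genotype. Over all genes measured in this way, 10.3% were at least 2-fold higher and 6.38% at least 2-fold lower, beside the counts of each marker list. Snap25, Syt1, Sox10 and Mbp, counted as lower, reached the mean of 10 through their WT samples alone. Kdr reached it through its Setd5+/- samples alone. The part of these markers in the differences of the RPTP genes was not tested, and in bulk RNA fewer cells of a type cannot be told apart from less RNA per cell.

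The 10 genes fall into 4 subfamilies by their ectodomains. Ptprf, Ptprs and Ptprd form the LAR group (type IIa), with immunoglobulin and fibronectin repeats that bind heparan and chondroitin sulfate proteoglycans and synaptic organisers. Ptprk, Ptprm and Ptprt form type IIb, whose MAM domains mediate homophilic cell adhesion. Ptpra and Ptpre form type IV, with short ectodomains, and are known as activators of Src family kinases. Ptprg and Ptprz1 form type V, with a carbonic anhydrase-like domain that binds contactins. What the 10 share is the phosphatase fold, and the codons of its active site are shown first because they also show how far the transcripts can be told apart. The active-site motif (histidine, the catalytic cysteine, any 5 residues, arginine, then serine or threonine) was searched in the translation of the longest coding model of each gene in GENCODE M21 (build GRCm38, the same assembly as mm10). It occurred in 2 places in 8 of the genes and in 1 place in Ptprg and Ptprz1. The 27 bases of the first occurrence follow in coding orientation, with the codon of the catalytic cysteine in capitals. In each gene they are exonic, coding, and cross an intron, so the coordinates run over it.
Ptprf (chr4:118212231-118212334, minus strand): catTGCagtgcgggtgtggggcgcaca
Ptprs (chr17:56417493-56417598, minus strand): cacTGCagcgcgggtgtggggcgcact
Ptprd (chr4:75957363-75981961, minus strand): cacTGCagtgctggtgttggcagaact
Ptprk (chr10:28580540-28585578, plus strand): cacTGCagtgctggtgctgggcgcaca
Ptprm (chr17:66693580-66693779, minus strand): cacTGCagtgctggagcaggaaggaca
Ptprt (chr2:161555531-161558827, minus strand): catTGCagtgctggagccgggaggact
Ptpra (chr2:130540642-130541313, plus strand): cacTGCagtgcaggtgtagggcgcact
Ptpre (chr7:135669153-135669740, plus strand): cacTGTagcgcgggcgtgggtcggact
Ptprg (chr14:12213799-12215206, plus strand): cacTGCagcgctggtgtgggcaggaca
Ptprz1 (chr6:23033499-23035063, plus strand): cacTGCagtgctggcgtggggagaacg

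Ptpre alone spells the cysteine with TGT. Pairs of genes of the same subfamily shared 20 to 24 of the 27 bases (8 pairs), and pairs of different subfamilies 18 to 24 (37 pairs). Over whole transcripts, the longest stretch of identical bases shared by any 2 of the 10 genes was 44 bases, between Ptprd and Ptprk, followed by 36 bases between Ptpra and Ptprz1. All other pairs shared at most 30 bases.

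The windows around the gene starts are shown for Ptprt, the gene with the lowest ratio, and for Ptprm, Ptprf and Ptprg, the 3 with the highest. RefSeq promoter windows (build GRCm38.p6, from 250 bases before to 50 after the start) were found for 9 of the 10 genes by symbol, 13 windows in all, not including Ptprd. Both strands were searched for GGGCGG, the core of the GC box that Sp1 family factors bind, and matches are in capitals, also where they overlap. For Ptprg, which has 2 windows, the upstream one is shown.
Ptprt (chr2:162661098-162661397, minus strand): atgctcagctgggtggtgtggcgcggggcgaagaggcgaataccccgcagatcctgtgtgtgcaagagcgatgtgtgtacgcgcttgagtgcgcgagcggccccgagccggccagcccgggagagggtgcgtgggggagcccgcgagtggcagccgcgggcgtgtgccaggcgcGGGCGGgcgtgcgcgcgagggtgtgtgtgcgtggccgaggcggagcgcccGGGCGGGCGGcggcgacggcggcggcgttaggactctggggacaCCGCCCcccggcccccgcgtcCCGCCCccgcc
Ptprm (chr17:67354410-67354709, minus strand): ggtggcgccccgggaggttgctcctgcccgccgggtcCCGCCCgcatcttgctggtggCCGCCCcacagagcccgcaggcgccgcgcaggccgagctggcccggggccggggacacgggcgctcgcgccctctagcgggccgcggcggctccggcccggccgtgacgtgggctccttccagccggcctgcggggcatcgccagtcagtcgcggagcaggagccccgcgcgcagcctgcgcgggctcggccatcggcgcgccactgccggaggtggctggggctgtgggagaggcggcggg
Ptprf (chr4:118291348-118291647, minus strand): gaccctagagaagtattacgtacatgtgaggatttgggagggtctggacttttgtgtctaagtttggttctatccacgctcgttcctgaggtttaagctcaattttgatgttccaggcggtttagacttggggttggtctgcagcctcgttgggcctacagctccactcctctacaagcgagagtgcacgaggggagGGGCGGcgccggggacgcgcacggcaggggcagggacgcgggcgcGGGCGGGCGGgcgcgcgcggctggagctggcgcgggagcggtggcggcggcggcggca
Ptprg (chr14:11553303-11553602, plus strand): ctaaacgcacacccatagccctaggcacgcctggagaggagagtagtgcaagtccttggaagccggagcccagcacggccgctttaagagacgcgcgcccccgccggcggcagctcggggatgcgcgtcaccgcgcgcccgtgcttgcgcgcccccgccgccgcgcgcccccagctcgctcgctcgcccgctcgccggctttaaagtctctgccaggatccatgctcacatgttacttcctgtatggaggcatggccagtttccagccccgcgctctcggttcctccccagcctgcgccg

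The 4 windows held 46, 43, 30 and 36 CpG dinucleotides for Ptprt, Ptprm, Ptprf and Ptprg, against a median of 7 over the 32851 promoter windows of the same length in the table. Of the 4, the window of Ptprt held the most CpG, and 98.4% of all windows held fewer. The windows of Ptprk and Ptprz1, which were also lower in Setd5+/- NSCs, held 38 and 29. No relation between CpG and direction is read from these windows. GGGCGG was matched 5 times in Ptprt, 3 times in Ptprf, 2 times in Ptprm and not at all in Ptprg. It occurred in 8 of the 13 windows, from 8 genes, and in 35.7% of all windows. The 8-base cyclic AMP response element TGACGTCA occurred in 1 window, the upstream window of Ptprs, as in 1.79% of all windows, and the same window held 3 matches of the E-box CACGTG, which is in 7.15% of all windows. These matches describe the letters of the windows and say nothing of factors bound there.

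Of the 10 genes, all measured, 3 were at least 2-fold higher in Setd5+/- NSCs (Ptprm, Ptprf and Ptprg), 3 at least 2-fold lower (Ptprt, Ptprd and Ptprk) and 4 within 2-fold. Over the 16266 genes measured, 10.3% were at least 2-fold higher, 6.38% at least 2-fold lower and 16.7% either. Because the members were chosen on this contrast, nothing is read from their larger share. Their median log2 difference (Setd5+/- minus WT, on the log2(normalized count + 1) scale used for all log2 differences) was 0.29, against −0.02 over all measured genes. The median size of the difference regardless of sign was 1.06 for the 10 genes and 0.40 for all measured genes. The samples of the genotypes did not overlap in 9 of the 10 genes, which held for 65.3% of all measured genes. Since the samples of a genotype were counted as 1 library, a lack of overlap, also where given for single genes, is not agreement among replicates. The counting interval of the ratio lay above 1 in 5 of the 10 genes and below 1 in 4, against 32% and 32.3% of all measured genes, 64.3% either way.

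**Figure D1:**
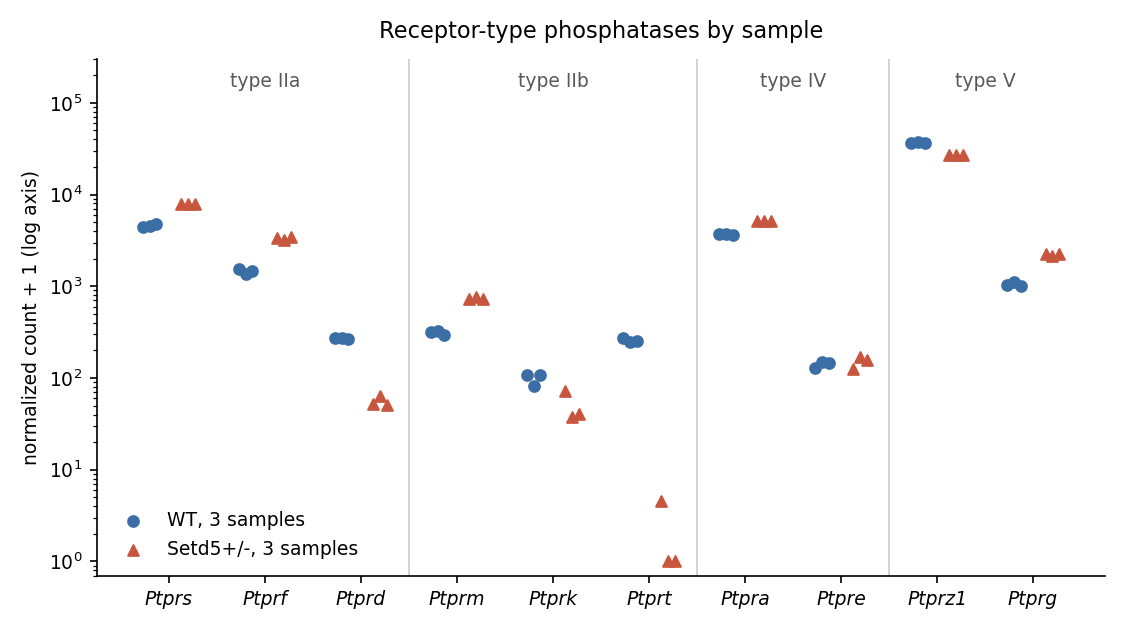
Normalized counts plus 1 (log axis) of the 10 genes in each of the 3 WT samples (circles) and 3 Setd5+/- samples (triangles), grouped by subfamily. Ptprt stood at 249 to 273 normalized counts in WT samples and at 0 to 3.58 in Setd5+/- samples, while the genotypes overlapped in Ptpre alone.

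Type IIa included both directions. Ptprs (PTPσ, ENSMUSG00000013236, chr17:56412426-56476483, minus strand), the receptor through which chondroitin sulfate proteoglycans halt axon growth, was at 4397, 4509.7 and 4740.3 normalized counts in WT samples and at 7897, 7926 and 7907 in Setd5+/- samples. All Setd5+/- samples were above all WT samples, with a log2 difference of 0.80 and a ratio of 1.74 (1.69 to 1.79). Ptprf (LAR, ENSMUSG00000033295, chr4:118208213-118291405, minus strand), a regulator of cell-matrix adhesion and synapse formation, was at 1531, 1377 and 1485 in WT samples and at 3320.5, 3214 and 3431 in Setd5+/- samples. It was the second highest of the 10 by ratio, at 2.27 (2.16 to 2.38), a log2 difference of 1.18. Ptprd (PTPδ, ENSMUSG00000028399, chr4:75941238-78211961, minus strand), a presynaptic organiser, was at 271, 269 and 265 in WT samples and at 51.2, 61.9 and 50.03 in Setd5+/- samples. Its WT samples were all above its Setd5+/- samples, and its level was 4.93-fold (3.83 to 6.43) lower in Setd5+/- NSCs, a log2 difference of −2.29. Ptprd was thus the type IIa gene that went against the other two. Summed over the 3 genes the normalized counts were 1.80-fold (1.75 to 1.84) higher in Setd5+/- NSCs, since Ptprd made up little of the sum.

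Type IIb held the highest and the lowest ratio of the 10. Ptprm (PTPμ, ENSMUSG00000033278, chr17:66666947-67354457, minus strand), a homophilic adhesion receptor found at cell contacts with cadherins, was at 318, 325 and 289.8 normalized counts in WT samples and at 731, 767 and 729 in Setd5+/- samples. Its ratio was 2.39 (2.15 to 2.65), a log2 difference of 1.25, with all Setd5+/- samples above all WT samples. Ptprt (PTPρ, ENSMUSG00000053141, chr2:161521990-162661147, minus strand), a brain-enriched member that acts at synapses, was at 273, 249 and 251 in WT samples and at 3.58, 0 and 0 in Setd5+/- samples. These values stood for 933 reads in the WT samples and 3 in the Setd5+/- samples, all 3 of them in 1 sample. The ratio was 0.00463 (0.000347 to 0.0196) and the log2 difference −7.28, and Ptprt passed the filter on low values through its WT samples alone. Of the 16266 measured genes, 40 had no more Setd5+/- reads than Ptprt, and 2 of these, Ptprt included, had a WT mean at least as high as that of Ptprt. All 40 could pass the filter through their WT samples alone, so the count leaves out genes low in both genotypes and is a description only. Ptprk (PTPκ, ENSMUSG00000019889, chr10:28074820-28597397, plus strand), which lowers EGF receptor phosphorylation in other cells, was at 106, 80.2 and 108 in WT samples and at 70.3, 36.9 and 39.3 in Setd5+/- samples. Its lowest WT sample was above its highest Setd5+/- sample by less than the range within either genotype. Ptprk had a ratio of 0.498 (0.368 to 0.667), a log2 difference of −1.04, and the difference was under 2-fold without WT sample 1 or 3 or Setd5+/- sample 2 or 3 in turn, where the log2 difference was as small as −0.87. Summed over type IIb the ratio was 1.19 (1.09 to 1.29), a small difference that covers the opposite ones of its members.

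**Figure D2:**
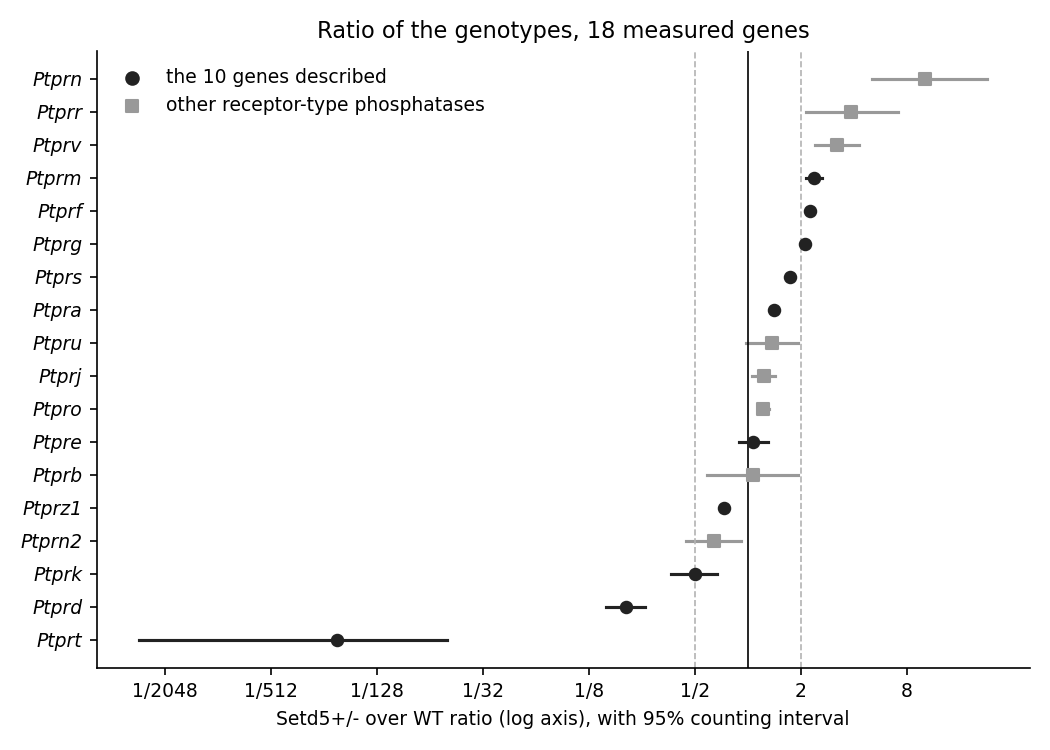
Ratio of the mean normalized counts, Setd5+/- over WT, on a log2-spaced axis for the 10 genes (circles) and the 8 other measured receptor-type phosphatase genes (squares), with 95% counting intervals as lines and dashed lines at 2-fold. Ptprt lay farthest to the left at 0.00463, and the 3 highest of the 10 genes, Ptprm, Ptprf and Ptprg, lay between 2.11 and 2.39.

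Neither type IV gene was past 2-fold. Ptpra (PTPα, ENSMUSG00000027303, chr2:130450278-130556124, plus strand), which removes the inhibitory phosphate of Src and Fyn, was at 3680.1, 3707 and 3669 normalized counts in WT samples and at 5145, 5118 and 5214 in Setd5+/- samples. All its Setd5+/- samples were above its WT samples, with a ratio of 1.40 (1.35 to 1.45) and a log2 difference of 0.49. An antisense gene, 4930473A02Rik, shares 3.01% of the exon model of Ptpra and was itself at 610.4 and 824 normalized counts as means of WT and Setd5+/- samples. Since it is not stated whether reads were counted by strand, reads of the shared stretch cannot be given to either gene. The same holds for 2.05% of the exon model of Ptpre, shared with the antisense gene 5830432E09Rik, and for 5.18% of that of Ptprm, shared with the processed pseudogene AC139750.1 on the same strand, for which no value was used here. Ptpre (PTPε, ENSMUSG00000041836, chr7:135537481-135686293, plus strand), the close relative of Ptpra, was at 128, 149 and 143 in WT samples and at 125, 170.3 and 155 in Setd5+/- samples. It was the single member whose genotypes overlapped, with a ratio of 1.07 whose interval, 0.885 to 1.297, held 1. A difference beyond that interval was not seen at this depth of 507 and 378 reads.

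In type V the pair differed in opposite directions. Ptprz1 (RPTPβ/ζ, ENSMUSG00000068748, chr6:22875502-23052916, plus strand), the receptor for pleiotrophin and tenascins on radial glia and oligodendrocyte precursors, was at 36752, 37014 and 36910.0 normalized counts in WT samples and at 27161, 27327 and 26847 in Setd5+/- samples. By mean normalized count 99.96% of the measured genes ranked below it, and the genotypes did not overlap. Its ratio was 0.735 (0.725 to 0.744), a log2 difference of −0.44. The summed markers of NSCs and of the oligodendrocyte lineage were lower in the same samples, with values given above. The lower NSC sum came with Fabp7, at means of 36015 in WT and 11490 in Setd5+/- samples. Of the 8 NSC markers 5 were lower and 3 higher, among the latter Vim at 9095 against 13822. Of the 7 measured oligodendrocyte markers 4 were lower and 3 higher, among the latter Pdgfra and Cspg4. The part of these markers in the level of Ptprz1 was not tested. Ptprg (PTPγ, ENSMUSG00000021745, chr14:11553532-12242041, plus strand), its relative that binds contactins, was at 1029, 1112 and 1007 in WT samples and at 2226, 2163 and 2256 in Setd5+/- samples. All its Setd5+/- samples were above its WT samples, with a ratio of 2.11 (1.99 to 2.24) and a log2 difference of 1.08. Because Ptprz1 is far the more abundant, the summed counts of type V were lower, with a ratio of 0.773 (0.763 to 0.783).

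**Figure D3:**
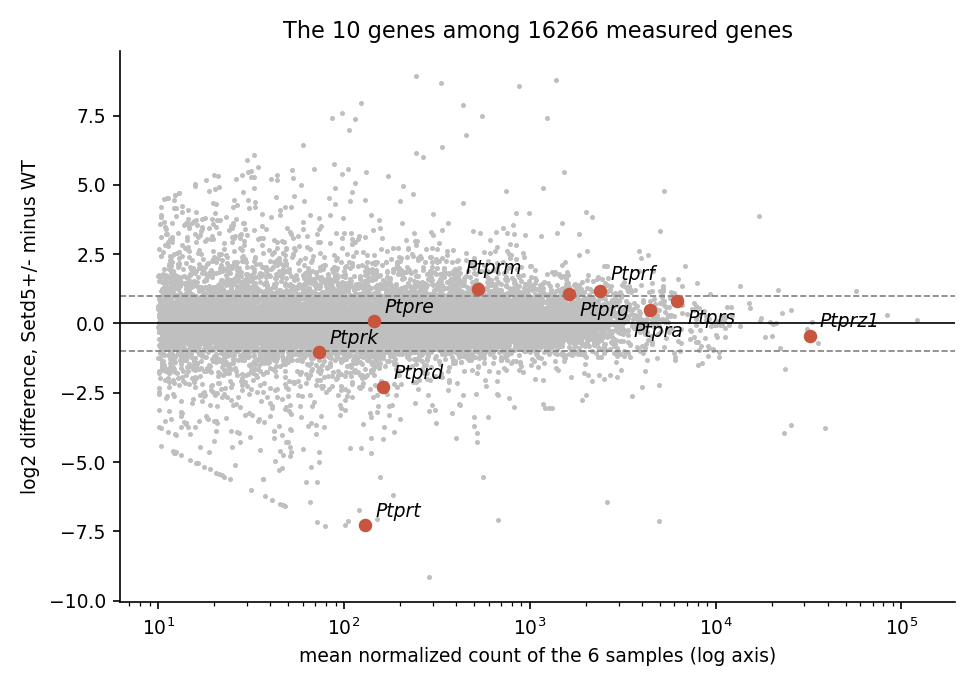
Log2 difference, Setd5+/- minus WT, against the mean normalized count of the 6 samples (log axis) for the 16266 measured genes (grey) with the 10 genes marked, and dashed lines at 2-fold. Ptprt lay near the lower edge of the cloud at −7.28, where 3 genes, itself included, were at or below its value, and Ptprz1 lay at the right end.

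The makeup of the family was compared per length, in normalized counts per kilobase of exon model. The sum over the 10 genes was 3577 per kilobase in WT and 3576 in Setd5+/- NSCs, so the summed levels were nearly equal while the shares of the genes differed. Ptprz1 made up 72.4% of the sum in WT and 53.2% in Setd5+/- NSCs. The share of Ptprs was 8.48% against 14.8%, that of Ptpra 9.50% against 13.3%, that of Ptprf 4.47% against 10.2% and that of Ptprg 2.66% against 5.63%. Without Ptprz1 the summed level of the other 9 was 987 per kilobase in WT and 1673 in Setd5+/- NSCs, and their summed counts were 1.66-fold (1.63 to 1.69) higher in Setd5+/- NSCs. Over coding length instead of exon length, the sum of the 10 was 8358 per kilobase in WT and 8718 in Setd5+/- NSCs. The share of Ptprz1 was then 63.6% against 44.8%. Not divided by length, the summed counts of the 10 had a Setd5+/- over WT ratio of 0.959 (0.949 to 0.969). The nearly equal sums thus hold for the exon model only.

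Within type IIb the makeup differed most. Of the summed level per kilobase of exon model of its 3 genes, Ptprm made up 55.9% in WT and 95.7% in Setd5+/- NSCs, Ptprt 32.4% against 0.108%, and Ptprk 11.7% against 4.17%. In type IIa, Ptprs was the main member in both genotypes at 63.9% against 59.1%, Ptprf was at 33.7% against 40.7% and Ptprd at 2.47% against 0.267%. In type IV, Ptpra made up 96.1% and 97.0%, and in type V Ptprz1 made up 96.5% in WT and 90.4% in Setd5+/- NSCs.

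**Figure D4:**
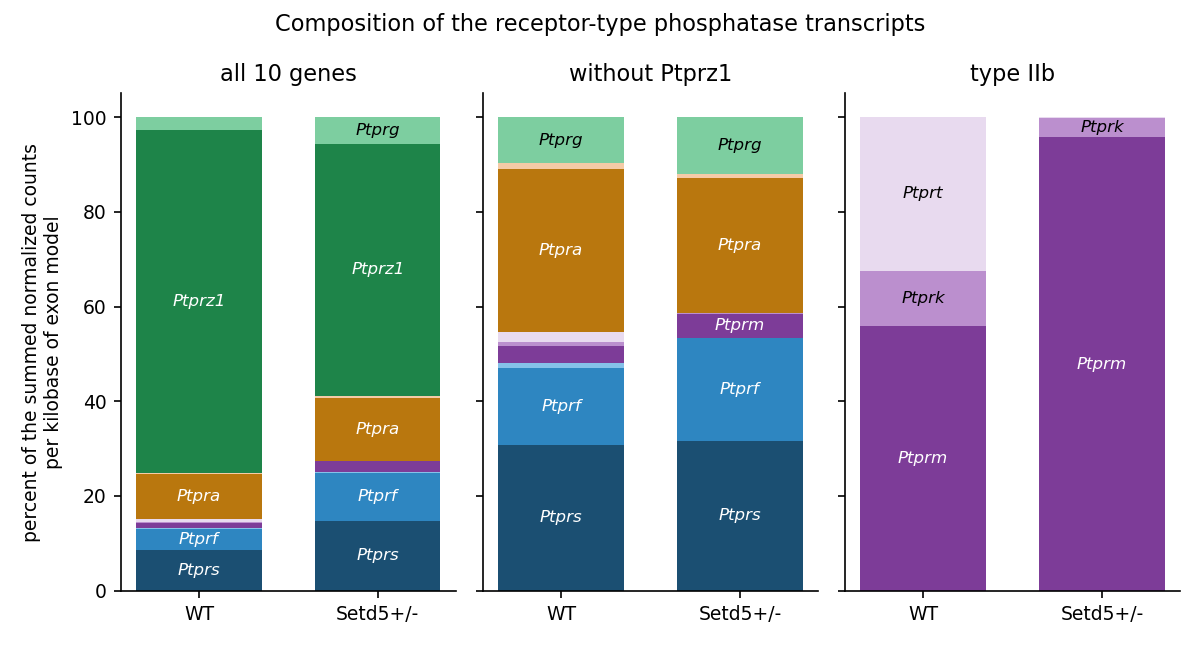
Share of each gene in the summed normalized counts per kilobase of exon model, as stacked bars from 0 to 100% for WT and Setd5+/- NSCs, over all 10 genes, over the 9 without Ptprz1 and over type IIb. Ptprz1 takes 72.4% of the first bar and 53.2% of the bar beside it, and in type IIb Ptprm goes from 55.9% to 95.7%.

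In WT NSCs the order of the levels per kilobase of exon model, from the highest, was Ptprz1, Ptpra, Ptprs, Ptprf, Ptprg, Ptprm, Ptprt, Ptpre, Ptprd and Ptprk. In Setd5+/- NSCs it was Ptprz1, Ptprs, Ptpra, Ptprf, Ptprg, Ptprm, Ptpre, Ptprk, Ptprd and Ptprt. The ranks of Ptpra and Ptprs were exchanged and Ptprt stood last. In neither genotype did the 3 samples of neighbours in the order overlap, but the closest pair, Ptprk and Ptprd in Setd5+/- NSCs, lay at 2.77 to 5.28 and 2.19 to 2.71 per kilobase. Per kilobase of coding length, 3 pairs of neighbours overlapped in WT (Ptprf with Ptprg, Ptprm with Ptpre, Ptpre with Ptprt) and 1 in Setd5+/- NSCs (Ptprk with Ptprd), and Ptpra stood above Ptprs in both genotypes.

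Among the 11 other receptor-type phosphatase genes, 8 were measured, of which 3 were at least 2-fold higher and none at least 2-fold lower, with a median log2 difference of 0.37. Over all measured genes 10.3% were at least 2-fold higher and 6.38% at least 2-fold lower. The same shares stand beside the counts of the lists below. Ptprn, a secretory granule protein with no phosphatase activity, was at 3.31 to 8.27 normalized counts in WT and 36.9 to 58.4 in Setd5+/- samples, a ratio of 10.1 (5.06 to 23.0). Ptprr, which acts on MAP kinases, was at 5.81 to 13.2 against 28.6 to 40.5, a ratio of 3.84 (2.15 to 7.16). Ptprv was at 24.8 to 59.7 against 111 to 137, a ratio of 3.19 (2.40 to 4.27). These 3 genes did not overlap between the genotypes, as held for 65.3% of all measured genes, but were low in WT NSCs. With WT means of 4.97 and 9.11, Ptprn and Ptprr passed the filter on low values through their Setd5+/- samples alone. The filter thus favoured their being counted as higher. Ptprn and Ptprv are on chromosome 1. The 1044 measured genes of chromosome 1 had a median log2 difference of 0.53, against −0.16 to 0.02 on the 7 chromosomes that hold the 10 genes, and its part in these values was not tested. Ptpro and Ptprj had log2 differences of 0.29 and 0.30, without overlap. For Ptpru (0.43) and Ptprb (0.01) the interval of the ratio held 1, and Ptprn2 was at 49.7 to 66.3 in WT and 32.2 to 41.7 in Setd5+/- samples, a log2 difference of −0.62. Ptprc, Ptprh and Ptprq, known from leukocytes, epithelia and the inner ear, had 3 reads or fewer in either genotype.

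The matrix and proteoglycan ligands of the family were higher as a list. Of 21 such genes 17 were measured, 9 at least 2-fold higher and 1 at least 2-fold lower, with a median log2 difference of 1.02, against −0.02 for all measured genes. With no filter on low values the median of the list was 0.28. The highest ratio was that of Tnc, which codes for tenascin-C, a ligand of Ptprz1. Tnc was at 2155 to 2250.1 normalized counts in WT and at 31994 to 32125 in Setd5+/- samples, a ratio of 14.6 (14.1 to 15.0). The heparan sulfate carriers, ligands of type IIa receptors, did not all do the same. Ratios were 3.73 for the glypican Gpc1, which is on the shifted chromosome 1, 3.27 for perlecan (Hspg2) and 2.53 to 2.98 for the syndecans Sdc1, Sdc2, Sdc3 and Sdc4. Agrn, Gpc6 and Gpc3 were within 2-fold, at 1.47, 1.21 and 0.863, and Gpc5, too low to be called measured, had 54 reads in WT and none in Setd5+/- samples. The other genes at least 2-fold higher were Gpc4 and the chondroitin sulfate proteoglycan Vcan, at 2.04 and 3.35. Gpc2, a glypican of neural progenitors, was the one at least 2-fold lower, at 974 to 1021 in WT and 466 to 510.1 in Setd5+/- samples. The chondroitin sulfate proteoglycans Ncan and Bcan had log2 differences of −0.92 and −0.44. Ptn, the pleiotrophin gene, was near 1 with a ratio of 1.04 (1.03 to 1.06). Tnr, the gene for tenascin-R, had a ratio of 0.865 (0.777 to 0.963). The pleiotrophin and tenascin genes, which code for ligands of Ptprz1, therefore did not share a direction in this list.

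The cell-surface partners, which are the synaptic organisers bound by type IIa and the contactins bound by type V, were lower as a list. Of 18 genes 13 were measured, 2 at least 2-fold higher and 6 at least 2-fold lower, with a median log2 difference of −0.65 that was −0.42 without WT sample 2. The 6 measured neuronal markers, 4 of them at least 2-fold lower, had a median of −1.96, and their part in this list was not tested. The lowest log2 difference was that of Cntn3, a contactin that binds Ptprg, at −4.43, or −2.35 with a pseudocount of 5. Cntn3 was at 17.4 to 24.0 normalized counts in WT samples and had no read in the Setd5+/- samples, a level at least 8.69-fold lower against a floor of 3 read pairs over the genotype, or at least 6.88-fold by the counting interval of the ratio. Since this is a bound, Cntn3 cannot be ranked against Slitrk5, which was 13.8-fold (9.51 to 20.9) lower. The highest ratio was that of Il1rapl1, a postsynaptic partner of Ptprd, at 4.14 to 8.29 against 31.0 to 45.3, a ratio of 5.35 (2.84 to 10.8). Il1rapl1, with a WT mean of 6.90, passed the filter on low values through its Setd5+/- samples alone. Cntn3 and Cntn6 passed it through their WT samples alone. The other genes at least 2-fold lower were Slitrk5, Cntn4, Slitrk3, Ntrk3 and Cntn6, with log2 differences of −3.74, −2.24, −1.82, −1.69 and −1.15, and Il1rap was the other gene at least 2-fold higher, at 1.62. The partners of Ptprd in this list, like the ligands above, thus stood on both sides, with Slitrk3 and Slitrk5 lower and Il1rap and Il1rapl1 higher. Slitrk5 was at 301 to 314 normalized counts in WT and at 19.1 to 23.8 in Setd5+/- samples.

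**Figure D5:**
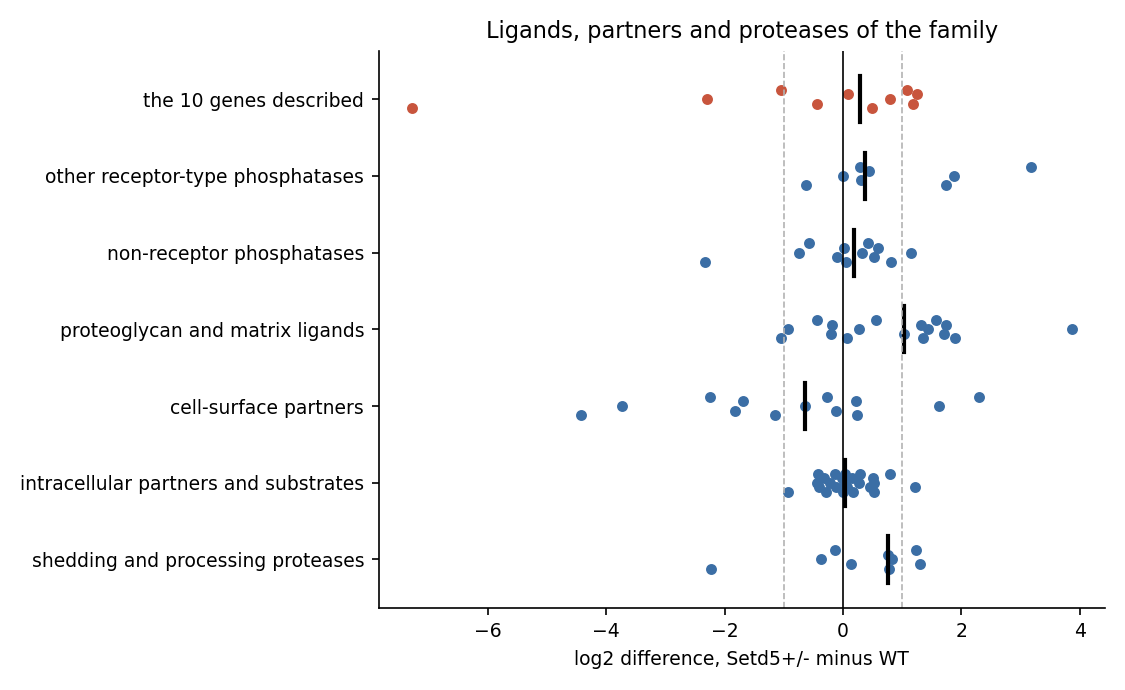
Log2 differences, Setd5+/- minus WT, of the measured genes (points) of the 10 genes described and of 6 lists of related genes, with the median of each list as a black bar and dashed lines at 2-fold. The median of the matrix ligands lies at 1.02 and that of the cell-surface partners at −0.65, while 23 of 24 intracellular partners lie within 2-fold.

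Inside the cell, the partners and substrates differed little. All 24 genes were measured, 23 within 2-fold, with a median log2 difference of 0.04 that was −0.00185 with values scaled to the total of reads counted on genes. The list holds the liprins and Trio, which bind LAR receptors, the catenins and N-cadherin, which type IIb enzymes bind or dephosphorylate, and the Src family kinases. The one gene past 2-fold was the liprin gene Ppfia4, on chromosome 1 and low in both genotypes, at 1.65 to 14.9 against 8.34 to 23.8 normalized counts, where the genotypes overlapped. Its WT mean was 7.74, so it passed the filter on low values through its Setd5+/- samples alone. The lowest ratio was that of Caskin1, a LAR-binding scaffold, at 662 to 673 in WT and 334 to 374 in Setd5+/- samples, a log2 difference of −0.92.

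RPTPs of types IIa and IIb are cut by furin-like convertases during maturation and then by ADAM proteases and γ-secretase at the membrane. Of 9 genes for these enzymes, all measured, 2 were at least 2-fold higher and 1 at least 2-fold lower, with a median log2 difference of 0.76. The highest ratio was that of Ncstn, a γ-secretase subunit, at 1031 to 1066 normalized counts in WT and 2549 to 2603 in Setd5+/- samples, a ratio of 2.45 (2.32 to 2.59), and Psen2, another subunit, had a ratio of 2.38 (1.84 to 3.10). Both genes are on chromosome 1, and the part of the chromosome's shift in them was not tested. The sheddase genes Adam10 and Adam17 and the convertase gene Furin, on other chromosomes, had ratios of 1.77, 1.72 and 1.69. The lowest ratio was that of the convertase gene Pcsk5, at 57.1 to 59.7 against 7.15 to 16.7 normalized counts.

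The RPTP genes are long. Their spans ran from 64.1 kb for Ptprs to 2270 kb for Ptprd, and 75.9% of the 12490 measured protein-coding genes were shorter than the shortest of the 10. Ptprd, Ptprt, Ptprg, Ptprm and Ptprk spanned 500 kb or more, and these 5 were also the genes with 3 of the 3 at least 2-fold lower values and 2 of the 3 at least 2-fold higher ones. The other 5 spanned 64.1 to 177 kb. Of the 149 measured protein-coding genes of 500 kb or more, 22 (14.8%) were at least 2-fold higher and 30 (20.1%) at least 2-fold lower, against 10.8% and 6.28% of all measured protein-coding genes. In the 732 genes of 200 kb or more, which include these 149, the shares were 16.8% higher and 12.7% lower. For the 3028 genes of 50 to 200 kb they were 14.1% and 5.28%. Over the 10 genes, Spearman's rho between span and log2 difference was −0.47, a description over genes read in the same libraries. Because the genes were picked with these differences known, nothing about span is read from it.

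The genes beside the 10 were also described. Of the 20 nearest measured protein-coding genes, 1 on each side of each RPTP gene, 1 was at least 2-fold different. Over all measured protein-coding genes 10.8% were at least 2-fold higher and 6.28% at least 2-fold lower, and nothing about the neighbourhoods is read from the count. The log2 differences of the 20 ranged from −0.74 to 2.20 with a median of 0.19. The gene past 2-fold was Lama1, next to Ptprm on chromosome 17, with a mean normalized count of 9.67 in WT samples against 43.3 in Setd5+/- samples. It passed the filter on low values through its Setd5+/- samples alone. Beside Ptprt on chromosome 2, Chd6 and Srsf6 had log2 differences of 0.24 and −0.74. Beside Ptprd on chromosome 4, Tmem261 and Lurap1l had log2 differences of 0.17 and 0.08. These neighbours were chosen by position and not by value.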

How the data were processed

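RNA-seq of 3 WT and 3 Setd5+/- samples of NSCs at 21% O2 was used. The authors trimmed reads with Trimmomatic, aligned them with Bowtie2 to mm10 and divided gene counts by DESeq2 size factors, per the submitters' processing notes and the study's methods. The counting program and its strand setting are not given in the sources used here. The deposited values are such normalized counts, and the deposited table also holds 5 columns of the authors' own comparison (log2 fold change, its error, statistic and p-values), which were not used.

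Many deposited values, and the deposited mean, lacked their decimal point. Points were placed so that each value was a whole number of reads (1 read being worth 0.827 to 0.829 normalized counts in WT and 1.19 in Setd5+/- samples), and the deposited mean decided 1116 genes. The means of all 52438 genes with values were matched, and 672 genes carry none. Tested on simulated data, 100% of 314628 values were recovered.

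Differences are means of log2(normalized count + 1). Genes averaging 10 normalized counts or more over the 6 samples were called measured. A low gene could pass through the genotype where it was higher alone, which favours its being counted as different. Since n = 1 per genotype, no test was made. Ratios carry exact conditional binomial 95% intervals, computed on counts divided by 1.96, the variance of reads over their mean within genotypes. A value near 2 would follow if both mates of a pair were counted, which no source used here states. In simulated data 95.5% of intervals held the true ratio. Python 3.11.15, numpy 2.4.6, scipy 1.17.1 and pandas 2.3.3 were used, with lengths and positions from GENCODE M21 (GRCm38).

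Named genes were all 10 members, all other receptor-type phosphatases, Setd5, and the genes with the largest positive and the largest negative difference in each list. Any further gene was named with its values in view. The members and the gene lists were chosen with earlier results of these data known. Alternatives were other pseudocounts, filters, scalings and fold limits, the coding length, and each sample left out in turn.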

Additional observations from a re-analysis of the deposited data

How the results depend on the processing

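No paired analysis was possible because the result comes from no test: the samples of a genotype were counted as parts of 1 library. The direction held in every alternative run for 9 of the 10 RPTP genes. Ptpre was at −0.00 without Setd5+/- replicate 2 and 0.22 at most. Ptprt ranged from −8.01 to −5.45, the latter with a pseudocount of 5, and Ptprk from −1.33 to −0.87, with −0.98 at a pseudocount of 5. Scaling to the total of reads counted on genes put the median of all measured genes at −0.06 and the upper quartile put it at −0.03. The 1680 genes at least 2-fold higher and 1037 lower became 2947 and 2184 with no filter, 1035 and 598 with a mean of at least 50, 3185 and 2577 at 1.5-fold, and 5200 and 5251 by counting intervals without 1, by which 5 of the 10 genes were higher and 4 lower. With a mean of at least 50 the median log2 difference was −0.46 for cell-surface partners, 0.0543 for non-receptor phosphatases and 1.17 for the matrix ligands, which were at 0.28 with no filter. With that scaling that of the intracellular partners turned to −0.00185. Leaving out each sample in turn gave −0.71 to −0.42 for the cell-surface partners and 0.67 to 0.80 for the proteases, with the lowest protease value without WT replicate 1. The cause of these shifts was not tested, beyond the sets of genes that the filters left. Depth limits Ptprt, Cntn3 and Sox10, with 4 Setd5+/- reads or fewer each.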

Other observations

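Non-receptor tyrosine phosphatases share the catalytic domain without a membrane anchor. Of 17 genes 12 were measured, 1 at least 2-fold higher and 1 at least 2-fold lower, with a median log2 difference of 0.19. These counts were near the shares over all measured genes, 10.3% higher and 6.38% lower, and do not set the list apart. The lowest ratio was that of Ptpn5, which codes for the striatum-enriched phosphatase STEP, at 114 to 137 normalized counts in WT and 19.1 to 33.4 in Setd5+/- samples, a level 5.07-fold (3.49 to 7.57) lower. The highest was that of Ptpn14, a regulator of YAP, at 268 to 323 against 598 to 679, on chromosome 1. Ptpn11, which codes for SHP2, had a ratio of 0.937 (0.884 to 0.993). Gpc5, a glypican left out by the filter on low values, had 54 reads in the WT samples and none in the Setd5+/- samples, a level at least 6.26-fold lower against a floor of 3 read pairs over the genotype, or at least 4.86-fold by the counting interval. Ptpn11 and Gpc5 were named after their values were seen.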
